A study of Mus musculus with 8 samples.

Results

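The genes described here encode Trp and other calcium-entry channels and the sensors that open them, with Trpv2 first because tranilast is widely used as a blocker of the TRPV2 channel. They were chosen by symbol: Trpv2, Trpv4, Trpm2, Trpm4, Trpm7, Piezo1, Orai1, Orai2, Stim1 and Stim2, and all 10 were found among the 22063 genes of the deposited table. RNA-seq had been carried out on 8 libraries labelled as WT mouse liver, 4 labelled Control and 4 labelled Control+tranilast, and the comparison asks how the RNA of these channels differs when tranilast is given. The design text places both groups on a high-fat and high-cholesterol (HFHC) diet, so the controls share the diet. The methods describe male C57BL/6J mice with tranilast or its carboxymethylcellulose vehicle by mouth over the final weeks of feeding. Neither the labels nor the methods tie a dose to these libraries or say how many animals each library came from, so p-values measure the spread between libraries.

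Calcium enters cells of the immune system mainly through channels of the plasma membrane. Store-operated entry begins when STIM proteins in the endoplasmic reticulum sense that the store is empty and open ORAI pores. TRP channels answer to heat, swelling, lipids, oxidants or calcium itself, and PIEZO1 opens under mechanical force. In macrophages TRPV2, TRPM2, TRPM4, TRPM7 and PIEZO1 have been tied to phagocytosis, migration and inflammatory signalling.

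The tissue label was checked against marker genes. Hepatocyte genes were nearly missing, since 9 markers together took no more than 1.5e-04% of a library and Alb, which encodes albumin, reached 2 counts at most. The 10 macrophage markers took 0.773% to 0.819% of the control libraries and 0.747% to 0.801% of the tranilast libraries, led by Lyz2, a lysozyme, and Csf1r, the receptor of the macrophage growth factor. Single markers differed between the groups. Fcgr1, an Fc receptor gene, had 1104 to 1731 counts in the control and 462 to 615 in the tranilast libraries, and the raw counts of Csf1r, Itgam and Lyz2 were also lower in every tranilast library, whose totals were in part lower. The part of these markers in the results was not tested. Mertk, C1qa and C1qb, which tissue macrophages usually express, had at most 11 counts, and Clec4f, Vsig4 and Timd4 of Kupffer cells had 0. Endothelial, stellate cell, cholangiocyte, lymphocyte, granulocyte and erythroid markers each took at most 1.9e-04%. The values below therefore belong to libraries whose markers are those of macrophages rather than of hepatocytes, and are not called liver values. In such bulk RNA, fewer cells of a type and less RNA per cell cannot be told apart. Library totals lay between 12053036 and 15618787 counts, and a gene with 0 counts could still hold up to 3, or 0.192 to 0.249 CPM, a count relative to its library's total, which covers counting error only.

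The sequences around the start sites of these genes differed in base composition, and Trpv2 had few CpG pairs. RefSeq promoter windows, 250 bases before and 50 after each start on GRCm38.p6, were matched by symbol for 9 of the genes. No window was found for Trpm4, so its start was not searched. The windows of 4 genes are printed, those of the pair of Orai genes, which encode the store-operated pore and moved apart, of Trpm7, which shares a motif with Orai2, and of Trpv2, the first start of 3 listed. Capitals mark CACGTG in the Orai2 and Trpm7 windows and GAGGAAGT in the Trpv2 window, and the Orai1 window holds neither. The windows are, in the order printed, chr5:136170607-136170906 on the minus strand, chr5:123014824-123015123 on the plus strand, chr2:126876212-126876511 on the minus strand and chr11:62574236-62574535 on the plus strand.
Orai2: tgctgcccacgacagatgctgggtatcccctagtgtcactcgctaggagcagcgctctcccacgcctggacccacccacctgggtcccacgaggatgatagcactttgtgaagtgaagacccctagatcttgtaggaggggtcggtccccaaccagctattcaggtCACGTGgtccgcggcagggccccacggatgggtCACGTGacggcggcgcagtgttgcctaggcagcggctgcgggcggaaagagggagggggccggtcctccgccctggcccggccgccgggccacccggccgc
Orai1: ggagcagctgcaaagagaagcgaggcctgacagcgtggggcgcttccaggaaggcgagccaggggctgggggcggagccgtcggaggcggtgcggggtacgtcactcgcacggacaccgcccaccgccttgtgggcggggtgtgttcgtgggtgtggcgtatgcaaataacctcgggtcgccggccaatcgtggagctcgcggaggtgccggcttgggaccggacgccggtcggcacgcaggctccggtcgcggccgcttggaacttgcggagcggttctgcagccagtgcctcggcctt
Trpm7: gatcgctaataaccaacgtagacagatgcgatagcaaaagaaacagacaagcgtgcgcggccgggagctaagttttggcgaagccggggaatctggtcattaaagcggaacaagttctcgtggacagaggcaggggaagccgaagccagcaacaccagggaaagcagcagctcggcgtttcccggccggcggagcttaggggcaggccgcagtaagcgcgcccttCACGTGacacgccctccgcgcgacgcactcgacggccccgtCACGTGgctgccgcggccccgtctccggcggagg
Trpv2: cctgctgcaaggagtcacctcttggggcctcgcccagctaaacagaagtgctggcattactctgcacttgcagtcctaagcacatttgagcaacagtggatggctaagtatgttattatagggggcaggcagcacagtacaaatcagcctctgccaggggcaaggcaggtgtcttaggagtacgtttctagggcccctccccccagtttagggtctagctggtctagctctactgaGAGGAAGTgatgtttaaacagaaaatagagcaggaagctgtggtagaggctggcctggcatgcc

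Orai2 carried CACGTG at 2 places, beginning 84 and 51 bases before its start, and Trpm7 carried it at 2 places, beginning 25 bases before and 16 bases after. The motif, the E-box read by MYC, USF and TFEB family factors, reads the same on both strands and was found in 7.15% of all 32851 windows, and the longer form GTCACGTG, which contains it, in 2.25% on either strand. Orai2 and Trpm7 had the longer form as well, and the other 7 genes with a window had neither. GAGGAAGT, a form of the PU.1 site of myeloid genes, was searched on both strands and lay in 3.2% of windows, and among these genes it was seen only in the overlapping first windows of Trpv2, 14 bases before the first listed start. Trpv2's first window had a GC content of 53.0% and 2 CpG pairs, against 78.7% and 38 for Stim1 and 70.3% and 36 for Orai1, while the median GC content of all windows was 52.7%. These motifs were chosen after the windows had been read, and a match is a description of letters only. Of the tested genes with a window, 442 held GTCACGTG, of which 161, or 36.4%, were higher with tranilast and 120, or 27.1%, lower, and among the 8177 without it 28.5% were higher and 29.2% lower. The shorter CACGTG was held by 1050 tested genes, with 32.5% higher and 30.9% lower, against 28.5% and 28.9% of those without it. GAGGAAGT was held by 331, with 24.2% higher and 41.7% lower, against 29.1% and 28.6% of those without it. A difference between genes with and without a motif was not tested.

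Trpm4, Orai2 and Trpm7 were higher with tranilast, and the difference in Trpv2 was too small to pass the test. Of the 9 genes that passed the expression filter, Trpm4, Orai2, Trpm7, Stim1 and Piezo1 were called higher at an adjusted p-value under 0.05, none was called lower, and Trpv2, Trpm2, Orai1 and Stim2 were not called. Across all 10770 genes tested the same threshold called 57.0%, with 28.2% higher and 28.8% lower, so the share of called genes here is close to that of the table as a whole. None of the channel genes reached an absolute log2 fold change of 1.5, the fold threshold of the study's methods, which 1.11% of all genes passed together with the adjusted p-value. Levels are given as CPM, the count relative to its library's total after scaling by the TMM method, the log2 fold change is tranilast minus control, and all adjusted p-values are from edgeR's quasi-likelihood fit over all tested genes. The median log2 fold change of the 9 genes was 0.14, and that of all tested genes was 0.01.

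**Figure D1:**
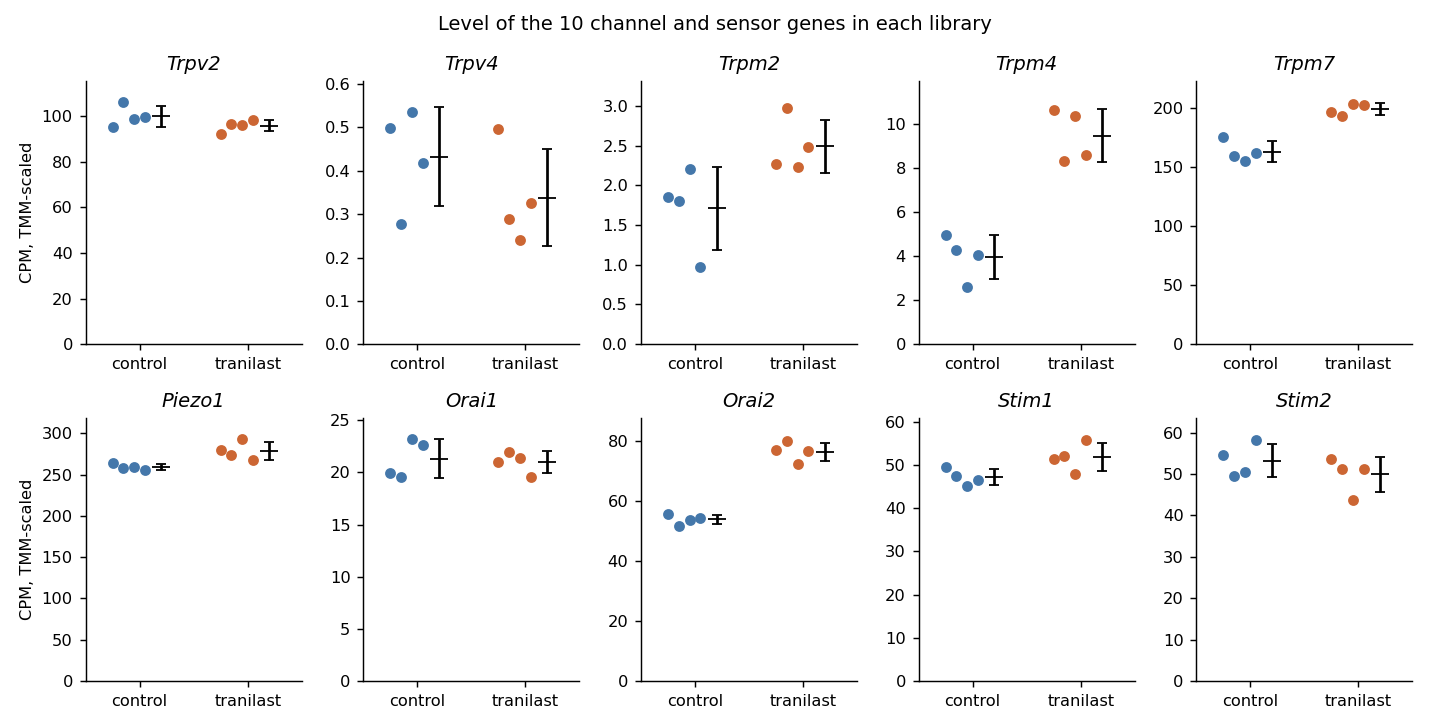
Level of each gene in the 4 control and 4 tranilast libraries, in TMM-scaled CPM on axes that start at 0, with 1 point per library in replicate order and a bar for the mean with its SD. Trpm4, Orai2 and Trpm7 separate by group, whereas the Trpv2, Orai1 and Stim2 points of both groups share a range.

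Trpv2 encodes a calcium-permeable TRP channel of the plasma membrane and endosomes, and the gene (ENSMUSG00000018507) lies on chromosome 11 of GRCm38 from 62574486 to 62600515. Its level was 95.4, 106, 98.7 and 99.5 CPM in control replicates 1 to 4 and 92.3, 96.5, 96.2 and 98.4 CPM in tranilast replicates 1 to 4. The groups overlapped, and control replicate 2 held the highest value of all. The control mean was 99.9 ± 4.49 CPM and the tranilast mean 95.9 ± 2.56 CPM (SD, n = 4 each), and the log2 fold change was -0.06 with a 95% interval from -0.15 to 0.03. The adjusted p in edgeR was 0.23, and exact permutation of the libraries, two-sided, gave p = 0.171. As a fold, the interval ran from 0.903 to 1.02 times the control level. The sign depended on scaling, since with library size alone the log2 fold change was 0.06, and when trends with GC content and transcript length were removed it was -0.11 and called lower (edgeR, adjusted p = 0.0337). Set against the median of all tested genes, Trpv2 lay at -0.07 under both TMM and library size.

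Trpv4 encodes a channel that answers to swelling and warmth, and its RNA was close to the detection limit. The gene had 7, 4, 8 and 6 counts in the control libraries and 7, 4, 3 and 5 counts in the tranilast libraries, too few for the filter. When it was fitted all the same, the log2 fold change was -0.34 with a 95% interval from -1.65 to 0.96 (edgeR, adjusted p = 0.71), so the counts were too few to show a difference.

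Trpm4 moved most. It encodes a channel that calcium opens and that passes sodium and potassium but hardly any calcium, so that it limits the driving force for calcium entry. The gene (ENSMUSG00000038260, chromosome 7, 45302632 to 45333780, minus strand) had 70, 62, 39 and 58 counts in the control libraries and 150, 115, 130 and 132 counts in the tranilast libraries. Every tranilast library lay above every control library, and control replicate 3 was the lowest. Its mean of 3.99 ± 0.999 CPM rose to 9.49 ± 1.19 CPM with tranilast (SD, n = 4 each), a fold of 2.38 with a 95% interval from 1.86 to 3.05. The log2 fold change was 1.25 (standard error 0.17, edgeR adjusted p = 5.4e-06), and the exact permutation test gave two-sided p = 0.0286, the smallest that 4 against 4 allow. It was rank 115 from the top among the 10770 genes tested. The log2 fold change was 0.68 on the log2(FPKM + 1) scale and 0.99 with 0.1 added instead. Mean FPKM was 1.67 in the control and 3.15 in the tranilast group, a level at which an added 1 narrows a log2 difference. The transcript length implied by count and FPKM averaged 2.52 kilobases in the control and 3.15 kilobases in the tranilast libraries. The part of that length in the smaller values was not tested.

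Trpm7 encodes a channel joined to a kinase domain that carries magnesium, zinc and calcium into most cells. Its level (ENSMUSG00000027365, chromosome 2, 126791565 to 126876230, minus strand) was 176, 159, 155 and 162 CPM in the control libraries and 197, 193, 204 and 202 CPM in the tranilast libraries. The groups did not overlap, and control replicate 1 was the highest control. Trpm7 rose from a mean of 163 ± 8.78 CPM to 199 ± 4.91 CPM (SD, n = 4 each), which is 1.22-fold, or 0.29 in log2 (standard error 0.038, edgeR adjusted p = 4.6e-06).

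Trpm2, which encodes a channel opened by ADP-ribose during oxidative stress, was scarce. It had 26, 26, 33 and 14 counts in the control libraries and 32, 41, 28 and 38 counts in the tranilast libraries. After scaling, the groups did not overlap, at 0.977 to 2.21 CPM and 2.24 to 2.97 CPM, although the closest libraries of the groups differed by little. The log2 fold change was 0.54 with a 95% interval from -0.00 to 1.081 and did not pass the threshold (edgeR, adjusted p = 0.0835). The exact permutation test of this gene alone gave two-sided p = 0.0286, and the adjusted p was 0.0355 with library size alone. Without control replicate 4, the lowest library, the log2 fold change was 0.35 (edgeR, adjusted p = 0.262). On the log2(FPKM + 1) scale with all libraries the log2 fold change was 0.15 (limma, adjusted p = 0.467). An added 1 narrows differences at so low a level, and with 0.1 added instead the value was 0.38 (limma, adjusted p = 0.441).

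Piezo1 encodes a large mechanosensitive channel. Its level (ENSMUSG00000014444, chromosome 8, 122481698 to 122551329, minus strand) was 265, 258, 260 and 255 CPM in the control libraries and 280, 274, 293 and 268 CPM in the tranilast libraries. Each tranilast library lay above the controls, by a small margin between tranilast replicate 4 and control replicate 1. Piezo1 rose 1.075-fold, or by 0.10 in log2 (standard error 0.032, edgeR adjusted p = 0.00956). The call ended when trends with GC content and length were removed (edgeR, log2 fold change 0.03, adjusted p = 0.397). Ctu2, a gene on the opposite strand with 320 to 471 counts, shares 2441 of the 9935 exon bases of Piezo1. Strand use in the counting is not given in the sources used here, so reads of that stretch cannot be told apart.

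Orai2 rose while Orai1 did not pass the test. ORAI1 forms the pore of the classical store-operated current, and ORAI2 joins the same channels and can dampen them. Orai2 (ENSMUSG00000039747, chromosome 5, 136147459 to 136170713, minus strand) stood at 55.5, 51.7, 53.7 and 54.4 CPM in the control libraries and at 76.8, 79.8, 72.4 and 76.6 CPM in the tranilast libraries. Both groups were tight and far apart. The mean rose from 53.9 ± 1.62 CPM to 76.4 ± 3.08 CPM (SD, n = 4 each), a fold of 1.42 with a 95% interval from 1.33 to 1.52. The log2 fold change was 0.51 (standard error 0.046, edgeR adjusted p = 3.4e-08), the lowest adjusted p among the 9 tested genes.

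Orai1 (ENSMUSG00000049686, chromosome 5, 123015074 to 123030456) stood at 19.9, 19.5, 23.2 and 22.6 CPM in the control libraries and at 21.02, 22.004, 21.4 and 19.6 CPM in the tranilast libraries. The 4 tranilast values lay inside the range of the controls. The log2 fold change was -0.02 with a 95% interval from -0.19 to 0.15 (edgeR, adjusted p = 0.823), and its sign turned with the scaling and with single libraries left out. Orai3, the remaining gene of the family, had a log2 fold change of -0.00 (edgeR, adjusted p = 0.979).

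Because a ratio within a library does not depend on how libraries are scaled, 5 pairs of related genes, chosen after their values were seen, were compared as log2 ratios of counts. The Orai2 to Orai1 ratio was 1.48, 1.40, 1.21 and 1.27 in the control libraries and 1.87, 1.86, 1.76 and 1.97 in the tranilast libraries, without overlap. The mean difference was 0.52, in favour of Orai2 with tranilast (exact two-sided permutation p = 0.0286, adjusted over the 5 pairs 0.0476). Against Orai3 the difference was 0.50 with the same p. The Stim1 to Stim2 ratio differed by 0.23 (exact permutation p = 0.0571, adjusted 0.0714), the Trpm4 to Trpm2 ratio by 0.69 (exact permutation p = 0.143, adjusted 0.143, and a difference of 0.35 without control replicate 3), and the Trpm4 to Trpm7 ratio by 0.99 (exact permutation p = 0.0286, adjusted 0.0476). The last difference was 0.65 when FPKM was used instead of counts. A p of 0.0286 is the smallest that 4 against 4 allow. The adjustment over the 5 pairs does not cover their choice from these values, so the ratios add no separate support to the results of the single genes.

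STIM1 and STIM2 are the store sensors, and STIM2 reacts to small losses of stored calcium. Stim1 (ENSMUSG00000030987, chromosome 7, 102267806 to 102437319) stood at 49.6, 47.5, 45.3 and 46.5 CPM in the control libraries and at 51.3, 52.0, 48.0 and 55.9 CPM in the tranilast libraries. The groups overlapped through tranilast replicate 3, which lay below control replicate 1. Stim1 passed the threshold narrowly, at 0.14 in log2 (standard error 0.054, edgeR adjusted p = 0.0385, exact permutation p = 0.0571). This call did not hold with DESeq2 (adjusted p = 0.0629), without the filter (0.0504), with GC and length trends removed (0.218) or when control replicate 2, 3 or 4 or tranilast replicate 1, 2 or 4 was left out, where the adjusted p in edgeR reached up to 0.129.

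Stim2 (ENSMUSG00000039156, chromosome 5, 53998499 to 54121057) stood at 54.5, 49.5, 50.5 and 58.1 CPM in the control libraries and at 53.6, 51.1, 43.7 and 51.2 CPM in the tranilast libraries. The ranges overlapped, with control replicate 4 high and tranilast replicate 3 low. The log2 fold change was -0.09 with a 95% interval from -0.22 to 0.05 (edgeR, adjusted p = 0.258), and with library size alone it was 0.03.

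**Figure D2:**
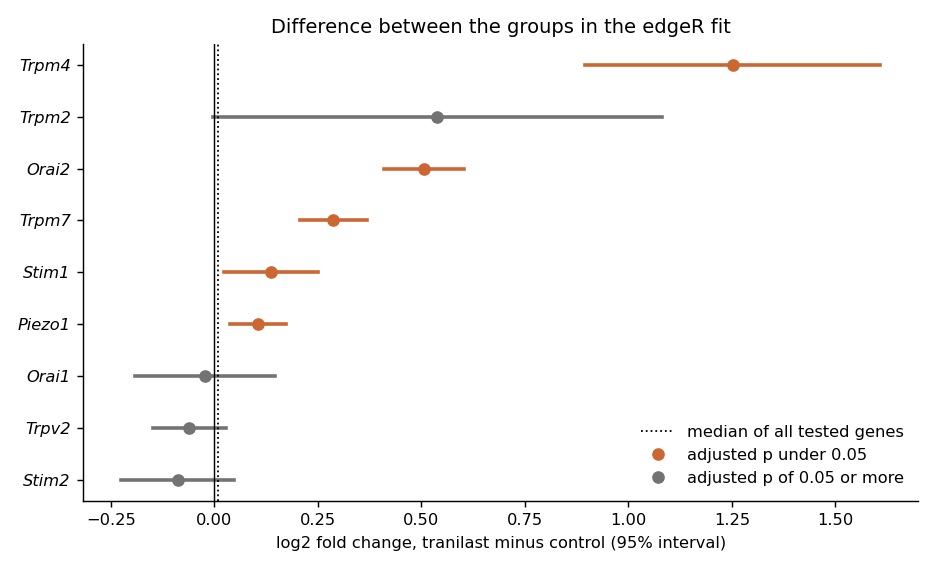
Log2 fold change of the 9 tested genes with its 95% interval from the edgeR fit, in colour where the adjusted p was under 0.05, with a dotted line at the median of all tested genes. Trpm4 is highest at 1.25, Orai2 and Trpm7 are the next highest of the called genes, and the intervals of Trpm2, which is the widest, and of Orai1, Trpv2 and Stim2 include 0.

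Scaled CPM separated the groups fully for 5 genes, all with tranilast above, namely Trpm4, Orai2, Trpm7, Piezo1 and Trpm2. Over all tested genes, 49.8% had groups without overlap, 24.5% with tranilast above. Stim1 was called with overlapping groups, and Trpm2 was not called without overlap, so the count of 5 is reached by both measures with different genes.

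Levels of different genes can be compared only per transcript length, for which the FPKM values deposited by the authors were used. In the control group Trpv2 had the highest level of the 10 genes at 33.1 ± 1.27 FPKM (SD, n = 4), above Piezo1 at 30.9 ± 0.429 FPKM, and the ranges of the pair did not overlap. In the tranilast group Piezo1 came first at 36.1 ± 1.58 FPKM and Trpv2 next at 34.3 ± 1.003 FPKM, with overlapping ranges. Among all tested genes Trpv2's mean FPKM was at percentile 76.1 and that of Piezo1 at percentile 76.0.

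Trpm7 followed with 22.3 ± 1.52 FPKM in the control and 29.3 ± 0.796 FPKM in the tranilast group. Orai2 rose from 17.1 ± 2.30 to 26.6 ± 1.95 FPKM, which brought its range into that of Trpm7 in the tranilast group and out of that of Orai1, with which it overlapped in the controls. The FPKM of Orai2 did not follow its counts from library to library. On the log2(FPKM + 0.1) scale its log2 fold change was 0.65, against 0.51 in counts, and the median of all tested genes was 0.12. As geometric means, the Orai2 to Orai1 ratio in FPKM was 1.27 in the control and 1.84 in the tranilast group. The Orai2 to Orai3 ratio, taken the same way, went from 0.825 to 1.198. Orai1, Stim1 and Stim2 formed a lower tier, at 13.4 ± 1.21, 11.4 ± 0.785 and 11.95 ± 0.869 FPKM in the control group, with ranges that overlapped between neighbours in the order. In the tranilast group Stim1 at 13.2 ± 0.864 FPKM stood above Stim2 at 11.05 ± 0.493 FPKM without overlap. The log2 ratio of Stim1 to Stim2 differed between the groups by 0.32 in FPKM and by 0.23 in counts.

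Trpm4, Trpm2 and Trpv4 were low, with control means of 1.67 ± 0.729, 0.406 ± 0.239 and 0.148 ± 0.0542 FPKM and tranilast means of 3.15 ± 0.322, 0.570 ± 0.359 and 0.119 ± 0.0355 FPKM. The tranilast order was otherwise that of the controls, with Stim1 and Stim2 exchanged as well as Trpv2 and Piezo1. The genes whose mean-centred log2 CPM over the 8 libraries was nearest to that of Trpv2 were Iscu, at a root mean square distance of 0.018, Cox4i1 at 0.024 and Rps14 at 0.026.

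**Figure D3:**
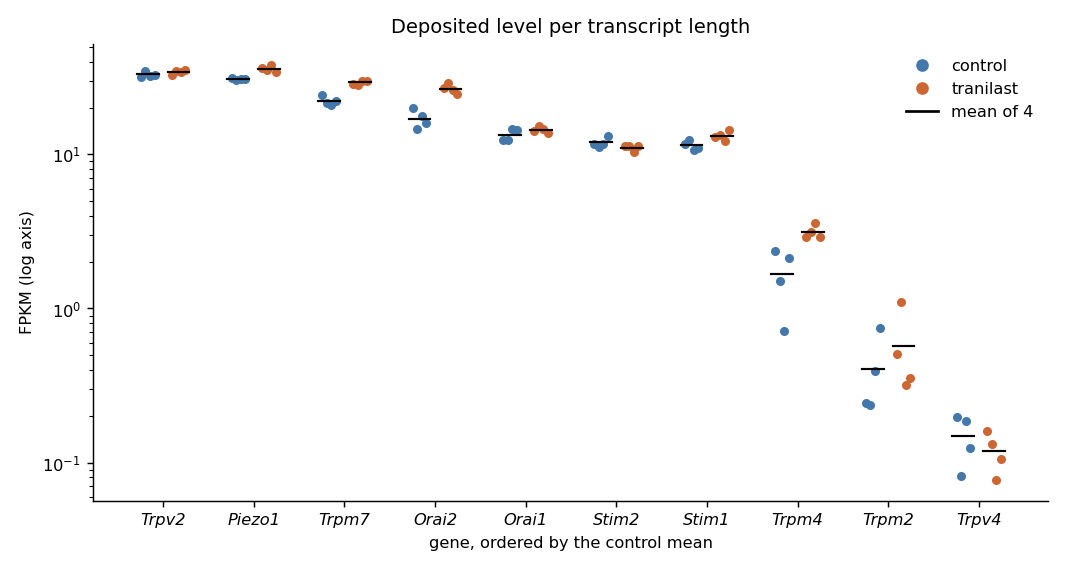
Deposited FPKM of each gene per library on a log axis, ordered by the control mean, with a line at the mean of 4 libraries. Trpv2 and Piezo1 are highest, Trpm4, Trpm2 and Trpv4 lie below the other 7, and Orai2 and Trpm7 show the widest gaps between groups among the abundant genes.

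How far the small differences depend on the processing is seen across 19 alternatives. Trpm4, Orai2 and Trpm7 kept their direction and their call in all of them, with log2 fold changes of 0.68 to 1.37 for Trpm4, 0.45 to 0.65 for Orai2 and 0.26 to 0.40 for Trpm7. The median of all tested genes moved by 0.12 when TMM was replaced by library size, and Trpv2, Orai1 and Stim2 then had values above 0. Of all called genes 49.5% were higher with TMM, 62.6% with upper-quartile factors and 70.9% with library size, 70.4% on the log2(FPKM + 0.1) scale and 45.3% with GC and length trends removed.

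**Figure D4:**
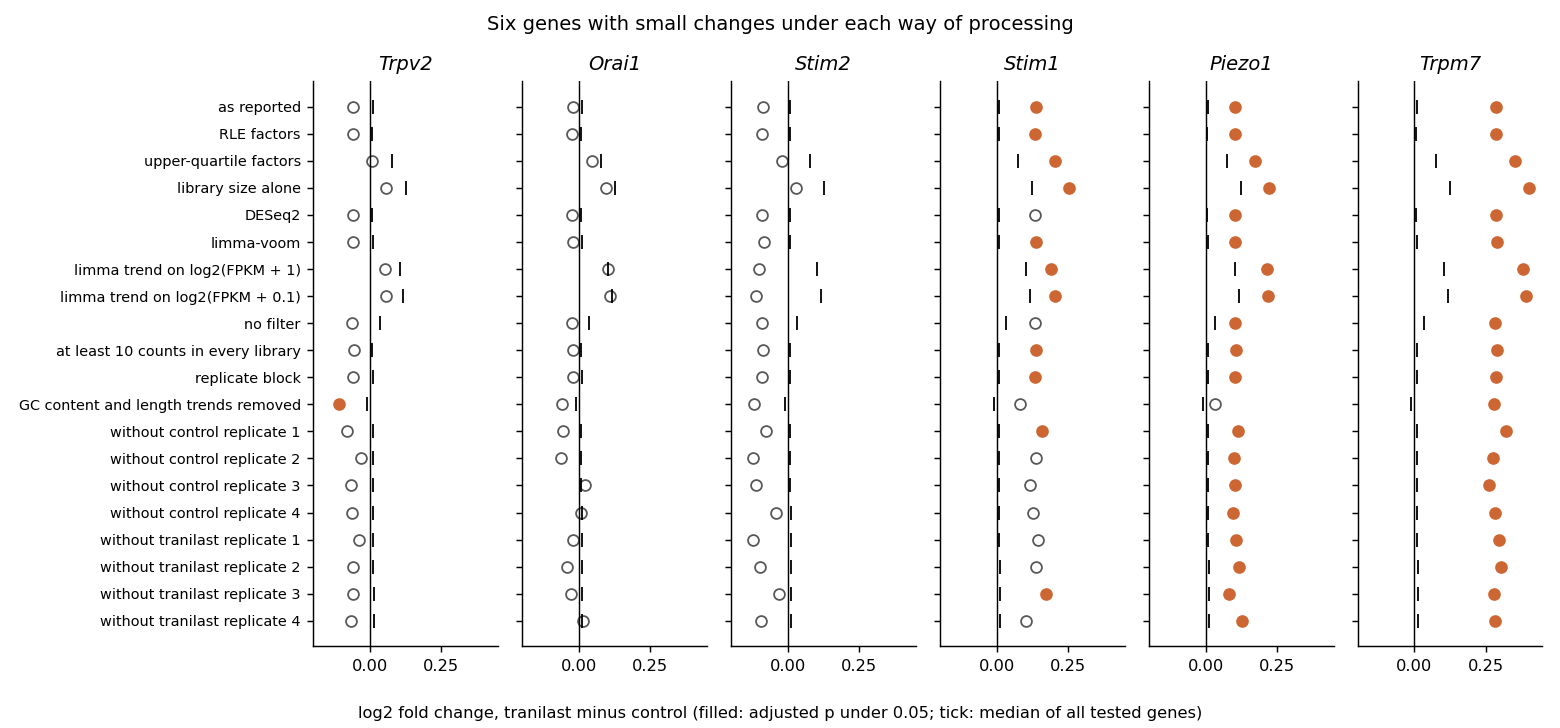
Log2 fold change of 6 genes (columns) under each processing alternative (rows), filled where the adjusted p was under 0.05, with a tick at the median of all tested genes. With library size alone Trpv2, Orai1 and Stim2 lie to the right of 0 and the tick lies further right, and Trpm7 stays to the right of the tick in every row.

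The rest of the calcium and ion machinery was followed in 10 lists with 122 genes, of which 73 were tested, 31 were higher and 24 lower, to be read beside the 28.2% higher and 28.8% lower among all tested genes, as are the counts of each list. The median log2 fold change over these 73 genes was 0.09. The other 23 genes of the Trp family were mostly at or near 0, and 18 of them had no more than 6 counts, among them Trpc1 to Trpc7, Trpv1 and Trpa1. Of the 5 that were tested 2 were higher and 1 lower. Mcoln1, the gene of the lysosomal calcium channel TRPML1, rose from 29.7 ± 1.54 to 48.1 ± 1.56 CPM (SD, n = 4 each), or by 0.70 in log2 (edgeR, adjusted p = 5.9e-09). Its relative Mcoln2, with 16 to 51 counts, had a log2 fold change of 0.80 (edgeR, adjusted p = 0.0085), and Trpm1, with 27 to 65 counts, had -0.65 (edgeR, adjusted p = 0.0118), both picked out after their values were seen.

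Among the partners of store-operated entry 4 of 7 genes were tested, and 2 were higher and 1 lower. Saraf, which switches the store-operated current off after refilling, rose with a log2 fold change of 0.50 (edgeR, adjusted p = 4.8e-07), close to that of Orai2. Stimate, a STIM1 activator, had 0.21 (edgeR, adjusted p = 0.0307, but 0.122 without control replicate 3, 0.0742 without tranilast replicate 1 and 0.0928 with GC and length trends removed), and Esyt1, a tether of the endoplasmic reticulum to the plasma membrane, had -0.14 (edgeR, adjusted p = 0.00521, and 0.681 with library size alone). Of the other mechanosensitive channels 3 of 8 genes were tested and 2 were higher. Mdfic, which encodes an auxiliary subunit of PIEZO channels, had a log2 fold change of 0.41 (edgeR, adjusted p = 2.6e-07) and Tmem63b one of 0.45 (edgeR, adjusted p = 7.6e-05).

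Of the purinergic and voltage-gated entry genes 7 of 20 were tested, 4 higher and 2 lower. P2rx4, an ATP-gated channel of macrophage lysosomes and membrane, rose from 9.54 ± 0.702 to 17.1 ± 0.981 CPM (SD, n = 4 each), or by 0.84 in log2 (edgeR, adjusted p = 5.8e-07). Cacna1b had 1.02 and Cacna1d -0.64 at 72.9 and 91.5 mean counts (edgeR, adjusted p = 4.2e-05 and 0.00507), and neither was called on the FPKM scales, where the adjusted p was at least 0.317. Cacna1a, the most abundant of the list by FPKM, had 0.17 (edgeR, adjusted p = 0.00304). Cacna1f, with 10 to 56 counts and a log2 fold change of -1.55 (edgeR, adjusted p = 9.3e-05), was the only list gene past an absolute value of 1.5 and was picked out for that.

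Store release and pumps held 14 tested genes of 19, with 6 higher and 5 lower. Atp2a2, the pump that refills the endoplasmic reticulum, fell from 827 ± 19.6 to 692 ± 9.80 CPM (SD, n = 4 each), with a log2 fold change of -0.26 (edgeR, adjusted p = 5.3e-08). Itpr1, a receptor for the second messenger IP3 that releases stored calcium, had -0.37 (edgeR, adjusted p = 1.1e-05) and Ryr1, at 66.1 mean counts, -0.76 (edgeR, adjusted p = 0.00112, and 0.106 on the log2(FPKM + 1) scale). Plcg1, a phospholipase that makes IP3, rose with 0.56 (edgeR, adjusted p = 2.4e-07). Its relative Plcg2 had -0.18 (edgeR, adjusted p = 1.5e-04), at a control mean of 55.7 FPKM against 7.11 FPKM for Plcg1. Itpr2 had 0.30 and Itpr3 -0.13 (edgeR, adjusted p = 1.2e-05 and 0.00223). These relatives were named after their values were seen. Store release genes thus went both ways.

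All 9 genes of the list named mitochondrial calcium uptake were tested, 5 higher and 2 lower. The list also holds an exchanger and regulators, so these counts give no direction of uptake. Slc8b1, the mitochondrial sodium-calcium exchanger, had a log2 fold change of 0.34 and Mcur1, a uniporter regulator, one of 0.33 (edgeR, adjusted p = 1.6e-04 and 1.7e-04). Smdt1, the gene of the uniporter subunit EMRE, had -0.29 (edgeR, adjusted p = 0.00143).

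Of the calmodulin, calcineurin and NFAT genes, 8 of 12 tested were lower and 2 higher, with a median of -0.14, where 28.8% of all tested genes were lower and 28.2% higher. A difference between the list and other genes was not tested. With library size alone 5 were lower and 3 higher. Calm3 and Calm2, which encode calmodulin, fell with log2 fold changes of -0.45 and -0.38 (edgeR, adjusted p = 2.8e-09 and 4.8e-09), and Rcan3, a calcineurin regulator, rose with 0.35 (edgeR, adjusted p = 1.2e-05). Nfatc1 had -0.32 (edgeR, adjusted p = 2.3e-06) and was named after its value was seen.

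The enzymes that make and remove ADP-ribose, the ligand of TRPM2, had 1 of 5 tested genes higher and 3 lower, all by small amounts. Parp1 had -0.13, Nudt9 -0.20 and Parg 0.15 (edgeR, adjusted p = 9.9e-04, 0.00819 and 0.0323). With library size alone none of the list was lower, so that direction depended on scaling, and Parg was not called when control replicate 1, 2 or 3 or tranilast replicate 3 or 4 was left out (edgeR, adjusted p of 0.0561 to 0.112) or with GC and length trends removed.

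Magnesium transport, the field of TRPM7, had 5 of 10 tested genes higher and 1 lower, with a median of 0.29, against 28.2% higher and 28.8% lower over all tested genes, and 8 were higher and none lower with library size alone. Cnnm2 rose from 11.8 ± 0.754 to 21.6 ± 1.84 CPM (SD, n = 4 each), or by 0.87 in log2 (edgeR, adjusted p = 1.9e-07), Slc41a3 had 0.81 (edgeR, adjusted p = 5.2e-04) and Cnnm3 0.48 (edgeR, adjusted p = 2.7e-07). Magt1, the highest of the list by FPKM, had 0.04 and was not called (edgeR, adjusted p = 0.297), and with library size alone it was 0.16 and called higher (edgeR, adjusted p = 6.9e-04). Of the potassium channels, which hold the membrane voltage that drives calcium in, 2 of 4 were higher and 1 lower. Kcnn4, a channel opened by calcium, fell from 154 ± 2.19 to 119 ± 3.31 CPM (SD, n = 4 each), with a log2 fold change of -0.38 (edgeR, adjusted p = 3.9e-08), while Kcnj2 had 0.35 and Kcnk6 0.22 (edgeR, adjusted p = 5.0e-05 and 0.00407).

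**Figure D5:**
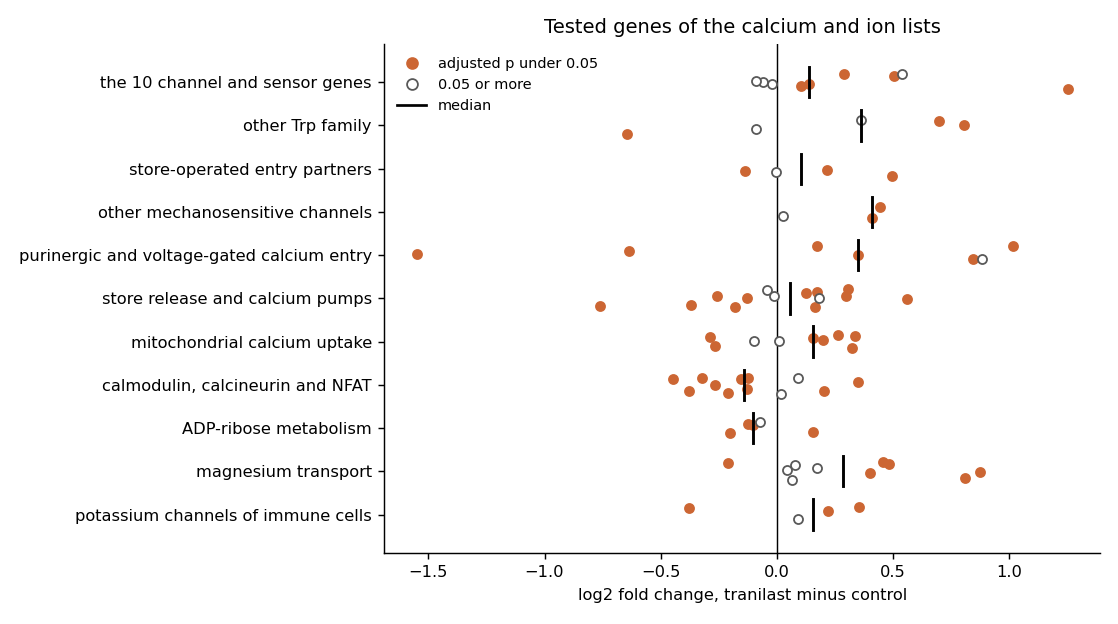
Log2 fold change of each tested gene in the 10 channel and sensor genes and in the 10 further lists, filled where the adjusted p was under 0.05, with a line at each median. Points scatter on both sides of 0 in most lists, the calmodulin, calcineurin and NFAT list sits mainly to the left, and the vertical spread within a list has no meaning.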

How the data were processed

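The authors deposited 1 table with an estimated count, not always whole, and an FPKM value, scaled by them to length and depth, for 22063 genes of 8 libraries. The aligner, counter and build are not given in the sources used here. Library totals of 12053036 to 15618787 counts set the precision.

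The deposited counts were rounded, filtered with filterByExpr, scaled by TMM and compared in edgeR 4.0.16 (R 4.3.3) with quasi-likelihood tests, without a covariate, and with Benjamini-Hochberg adjustment. The methods name limma, and the alternatives included limma 3.58.1, DESeq2 1.42.0, other factors, filters and thresholds, FPKM with 1 or 0.1 added, GC and length offsets, a replicate block and each library left out. Single genes were compared by exact permutation of log2(CPM + 0.1) in SciPy 1.17.1. The fit was tested on simulated data: 193 of 200 genes changed by a log2 fold of 1 were recovered among 10655 tested, with 2 false calls. The simulation gave every gene the same dispersion and changed few genes, as many up as down. It therefore does not cover smaller changes, or the scaling of data in which 57.0% of genes were called.

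Genes and lists were chosen with earlier results of these data known. List genes were named when called, with a mean count of at least 50 and among the 3 largest changes of the list, or when highest by FPKM. Coordinates are GENCODE M21 (GRCm38), with 21973 identifiers matched. Promoters are RefSeq (GRCm38.p6). No 2 libraries of the same group agreed within sampling noise, with a chi-square per degree of freedom of 2.52 to 5.59. The common biological coefficient of variation in the edgeR fit was 5.09%. These values do not show whether the libraries came from separate animals. Same-numbered libraries did not deviate together (r of -0.0541 to 0.132).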

Additional observations from a re-analysis of the deposited data

Results flagged for a closer look

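In 8 of 90 groups of 4 values, which covered the channel genes, the named list genes and the ratios, a single library lay far from the other 3, with a gap to its nearest neighbour above Dixon's 95% critical value as a share of the group's range. Chance flags about 1 in 20 such groups, and none of the 8 concerned the 10 channel and sensor genes. In the control group, Stimate was at 18.3 CPM in replicate 3 against 22.6 to 23.3 CPM (gap over range 0.867). Tmem63b was at 17.3 CPM in control replicate 1 against 20.5 to 20.8 CPM (0.91), and Cacna1b at 2.77 CPM in the same replicate against 3.56 to 3.68 CPM (0.87). Atp2a2 was at 798 CPM in control replicate 3 against 834 to 840 CPM (0.855). Smdt1 was at 43.8 CPM in control replicate 2 against 37.4 to 38.1 CPM (0.883), and Calm2 at 249.5 CPM in the same replicate against 239 to 239.8 CPM (0.898). Cacna1d was flagged in both groups, at 9.89 CPM in control replicate 3 against 6.84 to 7.29 CPM (0.851) and at 3.19 CPM in tranilast replicate 3 against 5.54 to 5.61 CPM (0.97).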

How the results depend on the processing

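Over the alternatives with a fitted test, between 4 and 6 of the channel and sensor genes were called, against 5, and none was called lower except Trpv2 with GC and length trends removed. With the added fold threshold of 1.5 in log2, the counts were 0 of these genes, 1 of the list genes and 120 of all genes. Among single genes, Trpv2 turned to 0.0073 with upper-quartile factors, 0.057 with library size alone and 0.052 and 0.054 with FPKM plus 1 or 0.1. Orai1 turned to 0.044 with upper-quartile factors, 0.094 with library size and 0.10 and 0.11 with FPKM plus 1 or 0.1. With single libraries left out it lay between -0.064 and 0.019, above 0 at 0.019 without control replicate 3, 0.0048 without control replicate 4 and 0.015 without tranilast replicate 4. Stim2 turned to 0.028 with library size. None of these passed the threshold. Upper-quartile and library-size factors shift every gene together. With FPKM plus 1 or 0.1 the median of all tested genes was 0.103 and 0.116. Set against it, Trpv2 lay at -0.051 and -0.063 and Orai1 at -0.00037 and -0.0070. The cause of the turns with FPKM and with single libraries left out was not tested. Of the named list genes, 539 of the values kept call and direction, 27 lost the call, 4 gained it and none reversed. With the replicate number as a block, 6009 genes were called against 6143, 54 list genes against 55 and the same number of channel genes, 5; 1 of the 4 control libraries correlated best with its own number. The ratio differences, recomputed on FPKM and with each library left out after the data were seen, kept their sign, and with single libraries left out that of Orai2 to Orai1 stayed between 0.48 and 0.57 and that of Trpm4 to Trpm2 ran from 0.35 to 0.96. Depth limits Trpv4 and Trpm2, with at most 8 and 41 counts.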

Other observations

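The length implied by a gene's deposited count and FPKM, with the table total as depth, was nearly constant for some of the channel genes and not for others. It was 2.88 to 2.91 kilobases in all 8 libraries for Trpv2 and 6.92 to 7.09 for Trpm7. For Orai2 it ranged from 2.70 to 3.40 kilobases, for Trpm4 from 1.84 to 3.78 and for Trpm2 from 1.26 to 7.29. Trpm2 in control replicate 4 had the lowest count of its group, 14, and the highest FPKM, 0.748. The FPKM of Trpm2, Trpm4 and Orai2 therefore did not follow their counts from library to library, and the isoform or estimation step involved was not analysed here. For Stim2 the mean implied length was 4.27 kilobases in the control and 4.69 kilobases in the tranilast libraries, and control libraries lay between 4.12 and 4.50 and tranilast libraries between 4.403 and 4.93, with overlap.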
